A study of Danio rerio with 6 samples.

Results

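The genes described here are the zebrafish integrins, laminins and fibronectins, the receptors that tie cells to the extracellular matrix and the matrix proteins they bind. Members were chosen by name: symbols that start with itga or itgb and a number or v, symbols that start with lama, lamb or lamc and a number, and fn1a and fn1b. This gave 44 of the 30677 symbols in the deposited tables, made up of 17 integrin alpha subunits, 12 integrin beta subunits, 5 laminin alpha, 5 laminin beta and 2 laminin gamma chains, 2 fibronectins, and itgb1bp1, an intracellular protein that binds the tail of beta-1 integrins and is no integrin itself. RNA was sequenced from GFP-positive cells sorted out of dissociated trunks, without brain and tail, of embryos at 14 hours post fertilisation with a wild-type genotype. There were 3 groups of 2 libraries: cells of the line TgBAC(nkx2.2a:memGFP), which carries membrane GFP, of TgBAC(olig2:GFP) and of TgBAC(dbx1b:GFP). In the ventral neural tube nkx2.2a marks the p3 progenitor domain beside the floor plate, olig2 the motor neuron progenitor domain and dbx1b the more dorsal p0 domain. Each group is 1 transgenic line, so line, form of GFP and sort cannot be told apart, and the labels do not say whether the libraries of a group came from separate embryo pools. The p-values therefore measure the spread between these libraries, which may be technical.

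Integrins are paired receptors of an alpha and a beta subunit, and the alpha subunit largely sets which matrix protein is bound. Fibronectin is bound by the alpha-5 and alpha-v subunits, laminin by the alpha-3, alpha-6 and alpha-7 subunits, and collagens by the alpha-1, alpha-2, alpha-10 and alpha-11 subunits, most of them paired with a beta-1 subunit. Laminins are trimers of an alpha, a beta and a gamma chain and form the core of basement membranes, such as those around the neural tube, the notochord and the somites. In zebrafish, fn1a, fn1b, itga5 and itgav are known from somite boundary formation, and lama1, lamb1a and lamc1 from the notochord basement membrane.

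The libraries held 6509032 to 13866834 mapped reads, counting both mates of each fragment. Levels are given in counts per 1000000 mapped reads after TMM scaling (CPM), or, where genes are compared with each other, as a level per length, meaning reads per 1000 transcript bases and 1000000 mapped reads, without TMM scaling. Where no read was counted, a library still allowed for 3 fragments, worth 0.422 to 0.910 CPM, for counting error only. Each reporter gene was highest in its own sort, with nkx2.2a at 493 and 363 CPM in the nkx2.2a libraries, olig2 at 219 and 125 CPM in the olig2 libraries and dbx1b at 182 and 215 CPM in the dbx1b libraries. All 20 neural progenitor markers had reads in every library, with summed levels of 3117 to 4656 CPM. In the olig2 libraries sox1a had only 6 and 4 reads, at or under 3 fragments. Markers of other tissues were present too, and they differed between sorts. The 13 notochord markers summed to 1004 and 1262 CPM in the nkx2.2a, 294 and 303 CPM in the olig2, and 586 and 727 CPM in the dbx1b libraries, with col9a1a and cav1 at 0 in both olig2 libraries. Of these, ta was highest in the dbx1b libraries, at 143 and 235 CPM against 4.52 to 48.0 CPM in the other 4. The 10 markers of presomitic mesoderm and tailbud summed to 270.4 and 445 CPM, 710.1 and 470.1 CPM, and 2184 and 1885 CPM in the nkx2.2a, olig2 and dbx1b libraries. The 16 epidermis and periderm markers summed to 2327 and 2655 CPM, 1460 and 1094 CPM, and 1158 and 786 CPM. The 13 somite and early muscle markers summed to 2229 and 527 CPM, 420.0 and 746 CPM, and 370.3 and 268 CPM. The 11 ventral midline markers summed to 1250 and 1385 CPM in the nkx2.2a libraries and 386 to 617 CPM in the other 4, and the 6 hatching gland markers to 1241 and 704 CPM against 24.0 to 168 CPM. The 8 neural crest markers summed to 227 to 302 CPM and the 11 endothelium and blood markers to 62.8 to 240.4 CPM over all 6 libraries. In sorted bulk samples, fewer cells of a type and less RNA per cell cannot be told apart.

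Of the 44 members, 20 had more than 3 fragments in every library, and 2, the platelet integrin gene itga2b and the leukocyte integrin gene itgb2, had 0 reads in all 6. Laminin chains were the most abundant class per length, followed in every library by integrin subunits and then fibronectins. Summed over the 12 laminin chains, the level per length was 489.95 and 515 in nkx2.2a cells, 270.3 and 198 in olig2 cells and 248 and 491 in dbx1b cells (library 1, then library 2). The nkx2.2a libraries lay above both olig2 libraries, while dbx1b library 2 reached the nkx2.2a range and dbx1b library 1 the olig2 range. Summed over the 29 integrin subunits, the level per length was 209.5 and 111 in nkx2.2a cells, 141 and 104 in olig2 cells and 151 and 169 in dbx1b cells. Receptor sums thus overlapped between the nkx2.2a sort and each of the others, and the dbx1b libraries lay above both olig2 libraries. Summed over fn1a and fn1b, the level per length was 67.4 and 84.6 in nkx2.2a cells, 35.3 and 73.4 in olig2 cells and 129 and 139 in dbx1b cells. The dbx1b libraries lay above the other 4.

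Laminins and fibronectins together outweighed the integrin subunits in every library. The integrin sum includes collagen receptor subunits and leaves out other laminin receptors, such as those encoded by dag1 and bcam. The ratio of the summed ligand level per length (laminins plus fibronectins) to the summed integrin level was 2.66 and 5.40 in nkx2.2a cells, 2.16 and 2.59 in olig2 cells and 2.49 and 3.73 in dbx1b cells. It was 4.03 ± 1.94 (SD, n = 2) in the nkx2.2a sort, 2.38 ± 0.307 in the olig2 sort and 3.11 ± 0.879 in the dbx1b sort. The nkx2.2a libraries lay above both olig2 libraries, by little in library 1, and all other pairs of sorts overlapped. Split by ligand, the laminin to integrin ratio was 2.34 and 4.64, 1.91 and 1.89, and 1.64 and 2.91 in the nkx2.2a, olig2 and dbx1b libraries. For fibronectins over integrins it was 0.322 and 0.762 in nkx2.2a, 0.250 and 0.702 in olig2, and 0.850 and 0.823 in dbx1b libraries. The dbx1b sort was thus the one with the most fibronectin transcript per integrin transcript in both of its libraries. With 2 libraries a group, a two-sided exact permutation test cannot go below p = 0.333, so these sums and ratios are given as descriptions.

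**Figure D1:**
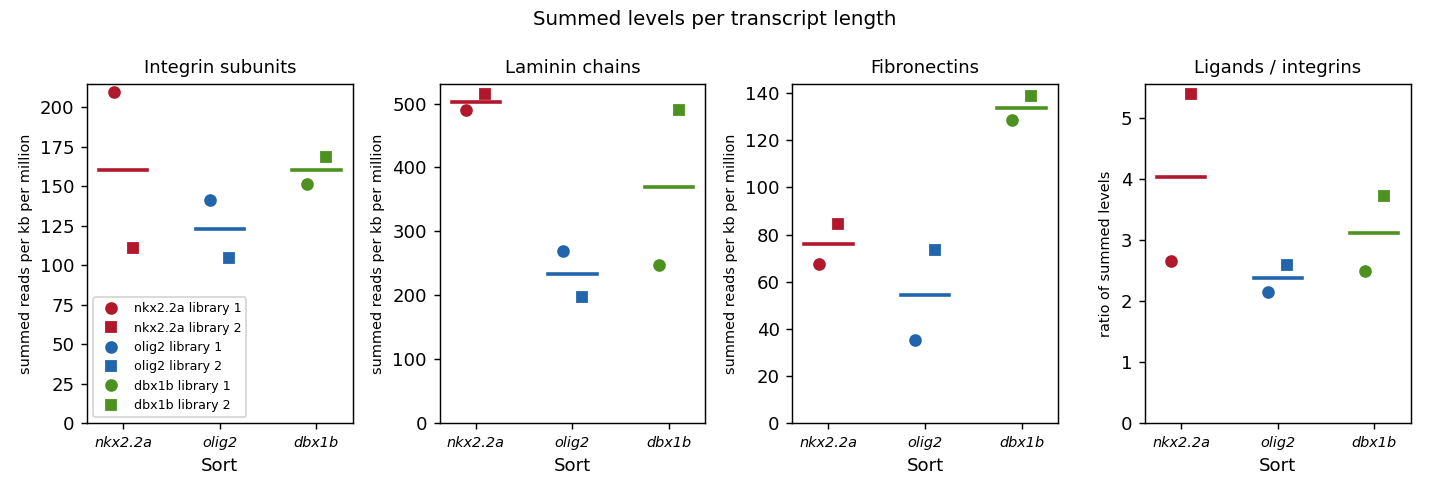
Summed level per transcript length (reads per 1000 bases per 1000000 mapped reads, linear axis from 0) of the 29 integrin subunits, the 12 laminin chains and the 2 fibronectins, and the ratio of ligands to integrins, in each library. Points are libraries (circle 1, square 2), bars the mean of a sort; fibronectins are highest in both dbx1b libraries (129 and 139), and laminins are higher in both nkx2.2a libraries (489.95 and 515) than in both olig2 libraries (270.3 and 198).

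Among the laminins, the chains lama1, lamb1a and lamc1, which form 1 trimer, made up 85.8% to 93.5% of the summed laminin level per length in every library. The alpha chain gene lama1 stood at 983 and 2018 CPM in the nkx2.2a libraries, 709 and 395 CPM in the olig2 libraries, and 588 and 1428 CPM in the dbx1b libraries. The gamma chain gene lamc1 stood at 1107 and 1468 CPM, 673 and 566 CPM, and 700.2 and 1237 CPM in the same order. The beta chain gene lamb1a stood at 607 and 451 CPM, 314 and 230.0 CPM, and 331 and 578 CPM. All 3 genes were higher in both nkx2.2a libraries than in both olig2 libraries, and the dbx1b libraries overlapped with the nkx2.2a libraries in all 3. In nkx2.2a over olig2 cells the log2 fold change was 1.44 ± 0.51 (SE) for lama1, 0.96 ± 0.38 for lamb1a and 1.06 ± 0.35 for lamc1. None of these passed edgeR's quasi-likelihood test over all 19129 genes tested (adjusted p = 0.553, 0.561 and 0.537). Between olig2 and dbx1b cells (olig2 over dbx1b) the log2 fold change was -0.87 ± 0.50, -0.74 ± 0.38 and -0.65 ± 0.35 in the same order (edgeR adjusted p = 0.605, 0.567 and 0.585), with overlapping libraries for lama1 only. Without dbx1b library 2 these values were -0.083, -0.27 and -0.17. In the nkx2.2a over the olig2 libraries, 8 of 13 notochord and 10 of 11 ventral midline markers were also higher without overlap and 0 lower. Of all genes, 20.0% were higher and 15.7% lower in that comparison. The genes shha, shhb and foxa2 stand on both lists. Of the 13 notochord markers, 10 had a positive log2 fold change in nkx2.2a over olig2 cells. The other 3, ta, noto and col8a1a, had a negative one. In the olig2 over the dbx1b libraries 7 of 13 notochord markers were lower and 1 higher, and 4 of 11 ventral midline markers each way. Of all genes, 25.4% were lower and 18.3% higher in that comparison. In the nkx2.2a over the dbx1b libraries, where all 3 trimer genes overlapped, 7 notochord markers were higher and 2 lower. Of the ventral midline markers, 9 were higher there and 0 lower, where 19.1% of all genes were higher and 21.0% lower. The part of these markers in the laminin values was not tested.

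The chains were not found in equal amounts. Per length, lama1 was at 0.568 and 0.880 times the level of lamc1 in the nkx2.2a libraries, 0.673 and 0.447 times in the olig2 libraries, and 0.537 and 0.739 times in the dbx1b libraries. The ratio of lamb1a to lamc1 per length was 0.617 and 0.345 in nkx2.2a, 0.525 and 0.457 in olig2, and 0.532 and 0.525 in dbx1b libraries. The gamma chain transcript was thus the most abundant of the trimer in every library, and the ratio of lama1 to lamc1 overlapped between all sorts.

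The other abundant alpha chain gene, lama5, a basement membrane chain of epidermis and many epithelia, separated the nkx2.2a sort from both others with little spread. It stood at 315 and 282 CPM in the nkx2.2a libraries, 129 and 122 CPM in the olig2 libraries, and 129 and 143 CPM in the dbx1b libraries. The log2 fold change was 1.25 ± 0.36 over olig2 cells and 1.13 ± 0.36 over dbx1b cells, with 95% intervals of 0.44 to 2.06 and 0.33 to 1.94. Neither passed over all genes (edgeR adjusted p = 0.535 and 0.667), while DESeq2 called the difference from olig2 cells (adjusted p = 0.0425). In that comparison DESeq2 called 523 of 19129 genes. Epidermis and periderm markers moved with lama5 in both nkx2.2a comparisons. Of 15 tested, 8 were higher without overlap over the olig2 libraries and 9 over the dbx1b libraries (20.0% and 19.1% of all genes). None was lower without overlap in either, and agr1 was at 0 in both dbx1b libraries. In olig2 over dbx1b cells lama5 was lower without overlap, by little (log2 fold change -0.12 ± 0.35, edgeR adjusted p = 0.948). There 4 of these markers were higher and 3 lower without overlap, against 18.3% and 25.4% of all genes. Other lists moved with lama5 in the nkx2.2a comparisons too. Over the olig2 libraries 10 of 11 ventral midline, 5 of 6 hatching gland and 8 of 13 notochord markers were higher without overlap. In these lists 0 were lower without overlap there. Over the dbx1b libraries 9, 6 and 7 were higher and 0, 0 and 2 lower. The part of any list in the result was not tested. As a share of all alpha chains per length, lama5 took 21.9% and 11.1% in nkx2.2a cells, 13.5% and 21.4% in olig2 cells and 16.2% and 8.02% in dbx1b cells, so the makeup of the alpha chains did not separate the sorts.

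The remaining laminin chains were lower. The beta chain gene lamb2l stood at 182 and 63.3 CPM in the nkx2.2a libraries, 94.4 and 65.0 CPM in the olig2 libraries, and 112 and 96.3 CPM in the dbx1b libraries. Its log2 fold changes were 0.62 ± 0.56, 0.24 ± 0.56 and -0.38 ± 0.56 in the comparisons of nkx2.2a with olig2, of nkx2.2a with dbx1b and of olig2 with dbx1b cells (edgeR adjusted p = 0.801, 0.994 and 0.874). The gene lamb2 differed more between the nkx2.2a libraries (29.4 and 1.81 CPM) than between sorts (7.28 and 2.84 CPM in olig2, 14.4 and 10.8 CPM in dbx1b). The chain gene lama2, which in muscle forms the main laminin of the fibre's basement membrane, was seen in single libraries, at 2.68 and 0 CPM, 21.8 and 0 CPM, and 0 and 8.15 CPM. Transcripts of lama3, lama4, lamb1b, lamb4 and lamc3 stayed below 5 CPM in every library. Between copies of 1 chain, lamb1a held 99.5% to 100% of the level per length of lamb1a plus lamb1b.

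**Figure D2:**
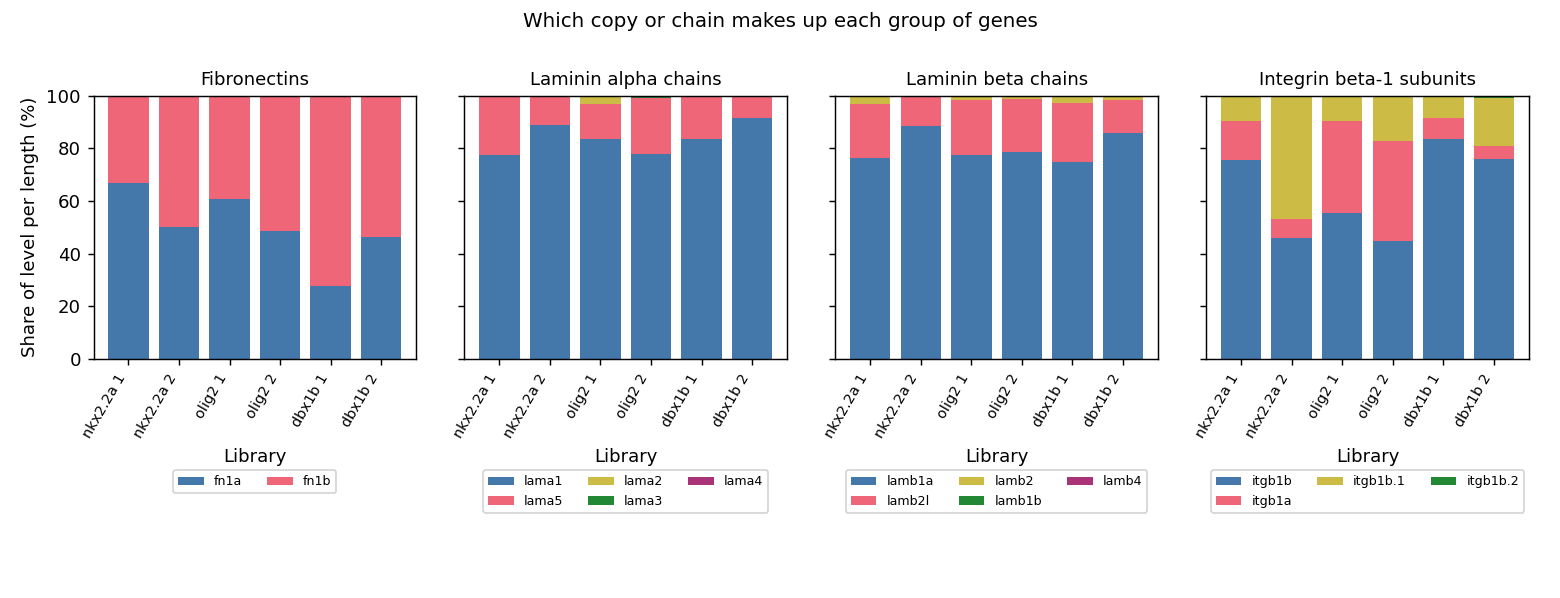
Share of the level per transcript length (percent, stacked to 100) that each gene takes of the fibronectins, the laminin alpha chains, the laminin beta chains and the integrin beta-1 subunits in each of the 6 libraries. The genes lama1 and lamb1a lead in every library, fn1a takes its lowest share in dbx1b library 1 (27.8%), and itgb1a takes its highest shares in the olig2 libraries (34.9% and 37.9%).

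The fibronectin copies had different patterns. Transcripts of fn1b stood at 844 and 623 CPM in the dbx1b libraries, 175 and 393 CPM in the nkx2.2a libraries, and 117 and 318 CPM in the olig2 libraries. Both dbx1b libraries lay above the other 4. The log2 fold change was -1.37 ± 0.54 in nkx2.2a over dbx1b cells and -1.75 ± 0.54 in olig2 over dbx1b cells, with 95% intervals of -2.58 to -0.16 and -2.98 to -0.53 (edgeR adjusted p = 0.784 and 0.450). Without a filter on low counts edgeR called fn1b in olig2 over dbx1b cells (adjusted p = 0.00417). Transcripts of fn1a stood at 354 and 391 CPM in the nkx2.2a libraries, 181 and 300.4 CPM in the olig2 libraries, and 323 and 534 CPM in the dbx1b libraries. The nkx2.2a and dbx1b libraries overlapped for fn1a, and the olig2 libraries lay below both other sorts. Its log2 fold change was 0.63 ± 0.39 in nkx2.2a over olig2 cells, -0.20 ± 0.39 in nkx2.2a over dbx1b cells and -0.83 ± 0.39 in olig2 over dbx1b cells (edgeR adjusted p = 0.672, 0.989 and 0.540). As a share of both copies per length, fn1a took 67.0% and 50.02% in nkx2.2a cells, 60.7% and 48.7% in olig2 cells and 27.8% and 46.3% in dbx1b cells. The dbx1b sort had the lower fn1a share in both libraries, though its library 2 (46.3%) lay close to olig2 library 2 (48.7%).

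Presomitic mesoderm and tailbud markers moved with fn1b. Of 9 tested, 8 were lower without overlap in the nkx2.2a than in the dbx1b libraries and 1 was higher, and in olig2 against dbx1b libraries 7 were lower and 0 higher, where 21.0% and 25.4% of all genes were lower. One of them, msgn1, a transcription factor gene of presomitic mesoderm, stood at 270.1 and 152 CPM in the dbx1b libraries against 11.2 to 18.3 CPM in the other 4. None of these markers was at 0 in both libraries of a sort. Their part in the fn1b difference was not tested.

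Among the receptors for fibronectin, itga5 was lowest in the olig2 sort. It stood at 66.8 and 56.1 CPM in the nkx2.2a libraries, 11.5 and 28.6 CPM in the olig2 libraries, and 55.9 and 83.8 CPM in the dbx1b libraries. The olig2 libraries lay below the other 4, and the nkx2.2a and dbx1b libraries overlapped. The log2 fold change was 1.61 ± 0.64 in nkx2.2a over olig2 cells and -1.80 ± 0.65 in olig2 over dbx1b cells (edgeR adjusted p = 0.561 and 0.487). Between nkx2.2a and dbx1b cells it was -0.18 ± 0.63, with a 95% interval of -1.59 to 1.22 (edgeR adjusted p = 0.994). The gene itgav, for a subunit that binds fibronectin and vitronectin, was highest in the dbx1b sort, at 60.9 and 56.2 CPM against 43.0 and 15.4 CPM in the nkx2.2a and 26.7 and 21.5 CPM in the olig2 libraries. Its log2 fold change was -1.002 ± 0.70 in nkx2.2a over dbx1b cells and -1.28 ± 0.71 in olig2 over dbx1b cells (edgeR adjusted p = 0.893 and 0.594). So itga5 and itgav were both higher in the dbx1b than in the olig2 libraries, as fn1a and fn1b were, whereas in the nkx2.2a sort itga5 was at the dbx1b level and fn1b was not. The beta subunit gene itgb5, which pairs with alpha-v, stood at 15.3 and 15.1 CPM, 37.0 and 21.7 CPM, and 14.0 and 26.1 CPM in the nkx2.2a, olig2 and dbx1b libraries, and its log2 fold changes (-0.95 ± 0.83, -0.40 ± 0.82 and 0.55 ± 0.82 in the order of comparisons above) did not pass either (edgeR adjusted p = 0.791, 0.993 and 0.880).

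Among the laminin receptors, itga6a was the most abundant alpha subunit per length in every library but nkx2.2a library 2 and dbx1b library 2. It stood at 152 and 87.5 CPM in the nkx2.2a libraries, 107 and 67.4 CPM in the olig2 libraries, and 95.5 and 52.8 CPM in the dbx1b libraries, and all 3 pairs of sorts overlapped. Its log2 fold changes lay between 0.23 and 0.69 (edgeR adjusted p = 0.854 to 0.928). The level per length of itga6a was 19.9 in nkx2.2a library 2, below itga3b at 22.2, and 13.3 in dbx1b library 2, below itga5 at 15.3.

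The gene itga3b, for the alpha-3 subunit, was highest in the nkx2.2a sort. It stood at 69.8 and 96.8 CPM in the nkx2.2a libraries, 21.8 and 48.0 CPM in the olig2 libraries, and 43.3 and 35.4 CPM in the dbx1b libraries. Both nkx2.2a libraries lay above the other 4, as they did for lama5 and itga6b. The log2 fold change was 1.25 ± 0.61 over olig2 cells and 1.08 ± 0.60 over dbx1b cells (edgeR adjusted p = 0.591 and 0.851). The gene itga6b stood at 19.8 and 24.1 CPM in the nkx2.2a libraries, 11.2 and 2.60 CPM in the olig2 libraries, and 10.1 and 17.1 CPM in the dbx1b libraries. For itga6b the log2 fold change was 1.67 ± 1.08 over olig2 cells and 0.69 ± 1.06 over dbx1b cells (edgeR adjusted p = 0.687 and 0.983). The other alpha-3 copy, itga3a, was detected in both dbx1b libraries (6.11 and 8.01 CPM) and in nkx2.2a library 1 (2.205 CPM), and was at 0 in nkx2.2a library 2 and both olig2 libraries. On the mean of both dbx1b libraries it was at least 8.72-fold higher than in the olig2 sort, counted against the mean floor of 3 fragments per olig2 library (0.810 CPM). From dbx1b library 1 alone the bound was 7.54-fold. The itga3b copy held 82.0% to 100% of the alpha-3 level per length.

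The gene itga7, for a laminin receptor subunit of muscle, stood at 42.5 and 6.03 CPM in the nkx2.2a libraries, 21.5 and 41.8 CPM in the olig2 libraries, and 6.82 and 3.65 CPM in the dbx1b libraries. The olig2 libraries lay above both dbx1b libraries, and the nkx2.2a libraries spanned both. The log2 fold change in olig2 over dbx1b cells was 2.60 ± 1.11 (edgeR adjusted p = 0.522). The libraries with the highest itga7 levels, nkx2.2a library 1 and olig2 library 2, were also those with the highest summed somite and early muscle markers (2229 and 746 CPM). The next libraries did not keep this order. In nkx2.2a library 2 the markers summed to 527 CPM with itga7 at 6.03 CPM, and in olig2 library 1 to 420.0 CPM with itga7 at 21.5 CPM. Of 12 tested markers of that list, 2 were higher and 3 lower without overlap in olig2 over dbx1b libraries (16.7% and 25%, against 18.3% and 25.4% of all genes), and tnnt3a was at 0 in both dbx1b and both nkx2.2a libraries. Their part in the itga7 difference was not tested. The gene itgb4, for the beta subunit of epidermal hemidesmosomes, stood at 29.0 and 2.11 CPM in the nkx2.2a libraries, 61.6 and 28.8 CPM in the olig2 libraries, and 23.3 and 12.5 CPM in the dbx1b libraries. The olig2 libraries lay above the dbx1b libraries (log2 fold change 1.33 ± 1.12, edgeR adjusted p = 0.748), and nkx2.2a library 1 overlapped with the olig2 range. Of 15 tested epidermis and periderm markers, 4 were higher and 3 lower without overlap in the olig2 over the dbx1b libraries (26.7% and 20.0%, against 18.3% and 25.4% of all genes). In nkx2.2a over olig2 cells the log2 fold change of itgb4 was -1.53 ± 1.12 (edgeR adjusted p = 0.731). There 8 of these markers were higher and 0 lower without overlap, against 20.0% and 15.7% of all genes. The part of these markers in the itgb4 differences was not tested.

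**Figure D3:**
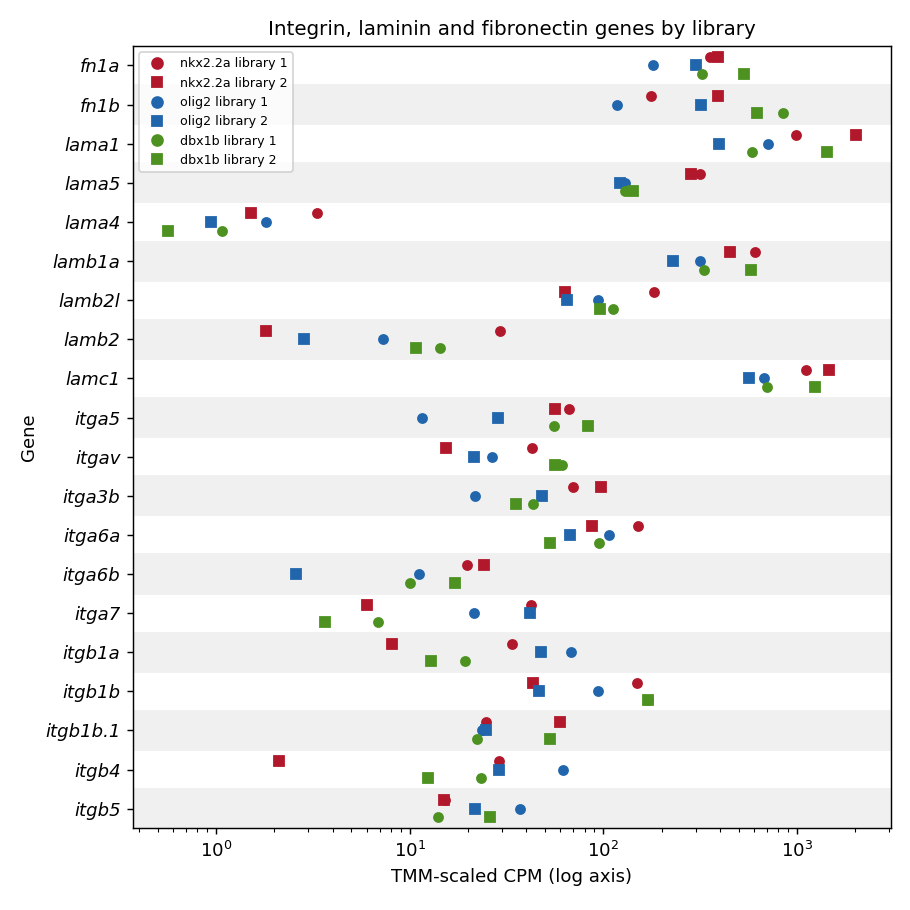
TMM-scaled CPM (log axis) of the 20 members with more than 3 fragments in every library, ordered from ligands to receptors, with 1 point per library (circle 1, square 2; colours are sorts). The points of lama5 separate the nkx2.2a libraries (315 and 282 CPM) from the other 4, fn1b is highest in the dbx1b libraries, and itga5 is lowest in the olig2 libraries (11.5 and 28.6 CPM).

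Beta-1 subunits made up 74.8% to 91.2% of the summed beta subunit level per length. The copies itgb1b and itgb1a had opposite orders in the olig2 and dbx1b sorts. The gene itgb1b stood at 148.5 and 43.4 CPM in the nkx2.2a libraries, 93.8 and 46.6 CPM in the olig2 libraries, and 171 and 169 CPM in the dbx1b libraries. The gene itgb1a stood at 33.7 and 8.14 CPM, 68.0 and 47.7 CPM, and 19.4 and 12.9 CPM in the same order. Both dbx1b libraries lay above the other 4 for itgb1b, and both olig2 libraries lay above the other 4 for itgb1a. In olig2 over dbx1b cells the log2 fold change was -1.28 ± 0.62 for itgb1b and 1.84 ± 0.84 for itgb1a (edgeR adjusted p = 0.546 and 0.532). In nkx2.2a over olig2 cells it was 0.45 ± 0.61 and -1.46 ± 0.83 (edgeR adjusted p = 0.888 and 0.644). Against dbx1b cells, the nkx2.2a values were -0.82 ± 0.61 and 0.38 ± 0.82 (edgeR adjusted p = 0.908 and 0.994).

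As a share of the beta-1 level per length, itgb1a took 14.8% and 7.40% in nkx2.2a cells, 34.9% and 37.9% in olig2 cells and 7.75% and 4.85% in dbx1b cells. The ratio of itgb1b to itgb1a per length was 5.10 and 6.18 in nkx2.2a cells, 1.59 and 1.18 in olig2 cells and 10.8 and 15.7 in dbx1b cells, so the 3 sorts did not overlap. A further copy, itgb1b.1, stood at 24.7 and 59.4 CPM, 23.7 and 24.8 CPM, and 22.3 and 53.1 CPM, and took 46.2% of the beta-1 level per length in nkx2.2a library 2 and 8.58% to 18.4% in the other 5 libraries. Reads shared by near-identical copies could not be traced, so single beta-1 copies are uncertain.

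The collagen receptor genes itga11a and itga10 were at or near 0 in the olig2 sort. The gene itga11a stood at 23.5 and 32.9 CPM in the nkx2.2a libraries, 2.43 and 0.473 CPM in the olig2 libraries, and 9.70 and 31.3 CPM in the dbx1b libraries. The log2 fold change of itga11a was 4.28 ± 1.23 in nkx2.2a over olig2 cells and -3.83 ± 1.21 in olig2 over dbx1b cells (edgeR adjusted p = 0.535 and 0.456; DESeq2 adjusted p = 0.00629 and 0.0194). The gene itga10, for a cartilage-type collagen receptor subunit, stood at 12.6 and 19.6 CPM in the nkx2.2a libraries, 0 CPM in both olig2 libraries, and 8.62 and 1.26 CPM in the dbx1b libraries. On the mean of both libraries, it was at least 19.9-fold higher in the nkx2.2a and at least 6.104-fold higher in the dbx1b than in the olig2 sort. Both were counted against the same mean floor of 0.810 CPM. From nkx2.2a library 1 alone the bound was 15.6-fold. The value against dbx1b cells rests on dbx1b library 1 (at least 10.6-fold), as library 2 alone gave at least 1.56-fold. Markers of notochord (8 of 13), ventral midline (10 of 11) and hatching gland (5 of 6) were also higher without overlap in the nkx2.2a over the olig2 libraries. In these lists 0 were lower without overlap, where 20.0% of all genes were higher. The genes shha, shhb and foxa2 stand on both of the first lists, and the notochord markers ta, noto and col8a1a had a negative log2 fold change there. In the olig2 over the dbx1b libraries 7 notochord markers were lower and 1 higher, 4 ventral midline markers were lower and 4 higher, and 1 hatching gland marker was lower and 0 higher. As shares of each list, 53.8%, 36.4% and 16.7% were lower and 7.69%, 36.4% and 0% higher, against 25.4% and 18.3% of all genes. In the nkx2.2a over the dbx1b libraries itga10 was higher without overlap, while itga11a overlapped. There 7 notochord markers were higher and 2 lower, 9 ventral midline markers higher and 0 lower, and 6 hatching gland markers higher and 0 lower. Of all genes, 19.1% were higher and 21.0% lower in that comparison. The part of these markers in the differences was not tested. The other collagen receptor genes were barely detected: itga1 was seen in olig2 library 1 alone (3.34 CPM), itga11b reached at most 1.42 CPM and itga2.2 at most 3.03 CPM.

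The remaining members were low or seen in few libraries. The integrin subunit gene itgb6 stood at 17.2 and 2.71 CPM in the nkx2.2a libraries, 0.607 and 0.236 CPM in the olig2 libraries, and 0.180 and 4.08 CPM in the dbx1b libraries. The gene itga9 stood at 8.98 and 0.302 CPM, 14.9 and 2.36 CPM, and 17.8 and 14.5 CPM. The genes itga4, itga6l, itga8, itgb1b.2, itgb3a, itgb3b, itgb7 and itgb8 stayed below 8 CPM in every library. The binding protein gene itgb1bp1, whose product in mammals competes with talin for the beta-1 tail, stood at 9.61 and 39.5 CPM in the nkx2.2a libraries, 0 and 2.13 CPM in the olig2 libraries, and 2.51 and 6.18 CPM in the dbx1b libraries. Its log2 fold change was 4.49 ± 1.82 over olig2 and 2.49 ± 1.65 over dbx1b cells (edgeR adjusted p = 0.561 and 0.878). Without nkx2.2a library 2 the log2 fold change over olig2 cells was 3.15, and without olig2 library 2 the one olig2 library left was at 0.

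A filter on low counts kept 37 of the 44 members for testing. A member kept through the sort where it is high had to differ, so counts over these 37 describe them and do not support a difference. In nkx2.2a over olig2 cells, edgeR called 0 members, where it called 0 of 19129 genes (0% of all genes tested). At an unadjusted p under 0.05, 8 members were higher (21.6%) and 0 lower, where 6.12% and 2.62% of all genes were. The 8 were the laminin genes lama1, lama5, lamb1a and lamc1, the receptor genes itga5, itga10 and itga11a, and itgb1bp1. Without overlap between libraries, 13 members were higher (35.1%) and 3 lower (8.11%), against 20.0% and 15.7% of all genes. Some of these lay near the floor of 3 fragments. Such were itga6l (0.787 and 3.02 CPM against 0) among the higher and itgb7 (0.315 and 0.603 against 1.52 and 2.13 CPM) among the lower. The median log2 fold change of the 37 was 0.62, or 0.46 with members at 0 in a sort set to their bound, and 0.05 over all genes. DESeq2 called 3 members, itga10, itga11a and lama5, where it called 523 of 19129 genes. Without a filter edgeR called 2, itga10 and lama1, where it called 233 of 27024 genes.

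In nkx2.2a over dbx1b cells, edgeR called 0 members, where it called 1 gene (0.00523% of all genes tested). At an unadjusted p under 0.05, lama5 was higher and fn1b lower (2.70% of members each), where 3.61% and 2.67% of all genes were. Without overlap, 9 members were higher (24.3%) and 7 lower (18.9%), against 19.1% and 21.0% of all genes, so the members lay near the background. Some lay near the floor of 3 fragments. Among the higher these included lama3 (0.315 and 1.51 against 0.180 and 0.281 CPM) and lamb4 (1.57 and 0.302 CPM against 0). Among the lower, lamb1b stood at 0.787 and 0 against 1.08 and 1.83 CPM. The median log2 fold change of the members was 0.22, with and without bounds, and 0.00 over all genes. DESeq2 and edgeR without a filter called 0 members, where they called 347 of 19129 and 238 of 27024 genes.

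In olig2 over dbx1b cells, edgeR called 0 members, where it called 0 genes (0% of all genes tested). At an unadjusted p under 0.05, itga7 was higher (2.70%) and fn1b, itga3a, itga5, itga10 and itga11a were lower (13.5%), where 3.70% and 5.83% of all genes were. Without overlap, 5 members were higher (13.5%) and 14 lower (37.8%), against 18.3% and 25.4% of all genes. Among the higher, lama3 (0.607 and 1.65 against 0.180 and 0.281 CPM) and itgb7 (1.52 and 2.13 against 0.180 and 0.984 CPM) lay near the floor. The median log2 fold change of the members was -0.65, with and without bounds, and -0.05 over all genes. DESeq2 called itga10 and itga11a, where it called 639 of 19129 genes. Without a filter edgeR called fn1b, where it called 292 of 27024 genes. The 3 comparisons share their libraries in pairs, so a low olig2 level enters both comparisons with olig2 cells.

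**Figure D4:**
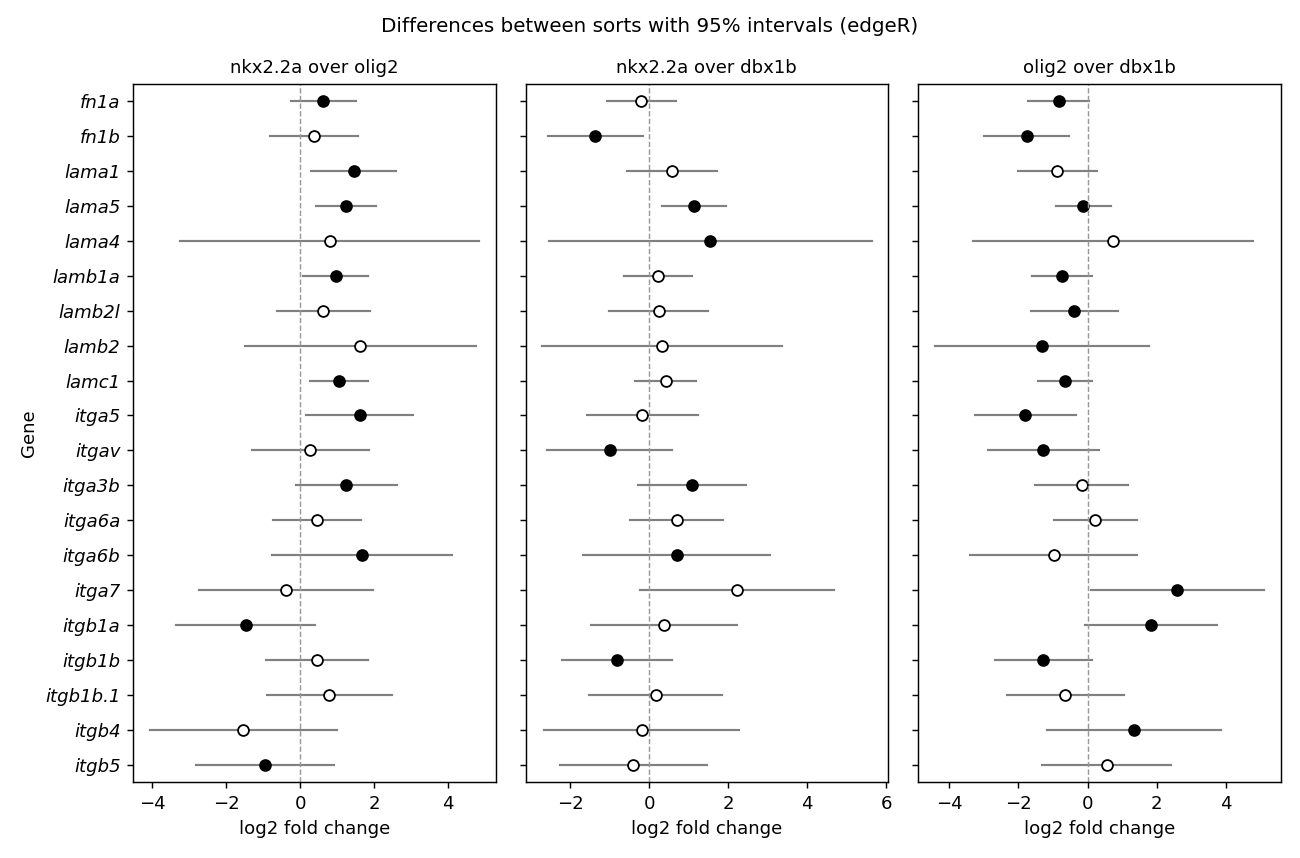
Log2 fold change (linear axis) with its 95% interval from edgeR for 20 members, with 1 panel for each pair of sorts; filled points mark members whose libraries do not overlap between the sorts, open points those that overlap. The intervals of lama5 lie above 0 in both nkx2.2a comparisons (0.44 to 2.06 and 0.33 to 1.94), that of fn1b lies below 0 in olig2 over dbx1b cells (-2.98 to -0.53), and no member passes adjustment over all genes.

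Libraries of 1 sort also differed from each other. Between the nkx2.2a libraries, 11 of the 20 members seen in every library differed by more than 2-fold, with lamb2 differing most (16.3-fold). In the olig2 sort 7 did, and in the dbx1b sort 2 did. The genes itgav, itgb1b, itgb1a, itga7, itgb4, lamb2 and lamb2l were all lower in nkx2.2a library 2 than in library 1, while lama1, fn1b and itgb1b.1 were higher. Leaving out nkx2.2a library 1 turned the log2 fold change of itgb1b in nkx2.2a over olig2 cells to -0.69, that of itgav to -0.65 and that of lamb2l to -0.33.

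Other parts of the adhesion machinery were read from 2 lists. Among 30 tested intracellular linkers and kinases, which connect integrin tails to actin, edgeR with its filter on low counts called 0 in any comparison. Without the filter it called 1, fermt3b, higher in nkx2.2a against dbx1b cells. The fermt3b call rests on nkx2.2a library 2 (133 CPM), as library 1 (5.04 CPM) lay below both dbx1b libraries (7.004 and 5.76 CPM). DESeq2 called 1 linker, tns1a, higher in olig2 against dbx1b cells. Over all genes, edgeR without the filter called 238 of 27024 in nkx2.2a over dbx1b cells. DESeq2 called 639 of 19129 in olig2 over dbx1b cells. In nkx2.2a over olig2 cells 11 were higher and 2 lower without overlap, in nkx2.2a over dbx1b cells 9 and 4, and in olig2 over dbx1b cells 5 and 12. These are 36.7% and 6.67%, 30.0% and 13.3%, and 16.7% and 40.0% of the list, against 20.0% and 15.7%, 19.1% and 21.0%, and 18.3% and 25.4% of all genes. At an unadjusted p under 0.05, 3 were higher and 1 lower in the first comparison, 2 and 0 in the next, and 1 and 2 in the last, or 10% and 3.33%, 6.67% and 0%, and 3.33% and 6.67%. Over all genes these shares were 6.12% and 2.62%, 3.61% and 2.67%, and 3.70% and 5.83%. The actin crosslinker gene actn4 stood at 239 and 222 CPM in the nkx2.2a libraries, 205 and 189 CPM in the olig2 libraries, and 380.0 and 229 CPM in the dbx1b libraries. The gene zyx, for the focal adhesion protein zyxin, was highest in the olig2 libraries, at 181 and 265 CPM against 133 and 80.2 CPM in the nkx2.2a and 114 and 155 CPM in the dbx1b libraries. Its log2 fold change was -1.07 ± 0.44 in nkx2.2a over olig2 cells and 0.73 ± 0.43 in olig2 over dbx1b cells (edgeR adjusted p = 0.561 and 0.613). The adaptor gene bcar1 and the small GTPase gene rap1aa overlapped between the nkx2.2a and olig2 and between the olig2 and dbx1b libraries, at 47.4 to 191 CPM and 73.3 to 151 CPM over all 6. Between the nkx2.2a and dbx1b libraries bcar1 overlapped, and rap1aa was lower without overlap in nkx2.2a cells (log2 fold change -0.52 ± 0.45, edgeR adjusted p = 0.936).

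Among 28 tested matrix partners and other binders of laminin or fibronectin, edgeR with its filter called 0 in any comparison. Without the filter it called bcam, egfl6, fras1, frem3 and thbs2, all higher in nkx2.2a against olig2 cells. It also called frem3 as higher in nkx2.2a over dbx1b cells, and bcam and thbs2 as lower in olig2 over dbx1b cells. Between nkx2.2a and olig2 cells DESeq2 called agrn, bcam, egfl6, fras1 and thbs2, all higher in the former. In nkx2.2a over dbx1b cells it called frem3 as higher and thbs2 as lower. In olig2 over dbx1b cells it called thbs4b as higher, and bcam and thbs2 as lower. Of these, agrn, egfl6, thbs2, thbs4b and frem3 are named only for these calls. Without overlap, 12 were higher and 2 lower in nkx2.2a over olig2 cells, 11 and 6 in nkx2.2a over dbx1b cells, and 4 and 10 in olig2 over dbx1b cells. These are 42.9% and 7.14%, 39.3% and 21.4%, and 14.3% and 35.7% of the list, beside the shares of all genes given for the linkers, so the share lower in nkx2.2a over dbx1b cells was near the background of 21.0%. At an unadjusted p under 0.05, 8 were higher and 1 lower in the first comparison, 5 and 2 in the next, and 1 and 4 in the last, or 28.6% and 3.57%, 17.9% and 7.14%, and 3.57% and 14.3%. Over all genes the shares were 6.12% and 2.62%, 3.61% and 2.67%, and 3.70% and 5.83%. The share lower in the first comparison and the share higher in the last were thus near the background. The gene bcam, for an immunoglobulin-type receptor of laminins with the alpha-5 chain, stood at 354 and 691 CPM in the nkx2.2a libraries, 72.8 and 73.0 CPM in the olig2 libraries, and 195 and 289 CPM in the dbx1b libraries. Its log2 fold change was 2.84 ± 0.44 in nkx2.2a over olig2 cells, 1.11 ± 0.42 in nkx2.2a over dbx1b cells and -1.73 ± 0.42 in olig2 over dbx1b cells (edgeR adjusted p = 0.376, 0.784 and 0.375). Both bcam and its ligand gene lama5 were thus highest in the nkx2.2a libraries, without overlap with the other 4. The gene fras1, for a basement membrane protein of the embryonic epidermis, stood at 281 and 367 CPM, 56.4 and 42.3 CPM, and 86.9 and 223 CPM, with a log2 fold change of 2.71 ± 0.52 in nkx2.2a over olig2 cells (edgeR adjusted p = 0.376). Of 15 epidermis and periderm markers, 8 were higher and 0 lower without overlap in the nkx2.2a over the olig2 libraries. Of all genes, 20.0% were higher and 15.7% lower there. In the olig2 over the dbx1b libraries, where bcam and fras1 were both lower without overlap, 4 of these markers were higher and 3 lower. These are 26.7% and 20.0%, against 18.3% and 25.4% of all genes. The claudin gene cldnb, with the largest change of these markers in nkx2.2a over olig2 cells, stood at 43.3 and 63.3 CPM against 0.910 and 0.945 CPM. Of the 15, 12 had a positive log2 fold change there and 3, krt4, krt17 and pou5f3, a negative one. In the nkx2.2a over the dbx1b libraries, 9 of the 15 were higher and 0 lower without overlap. There bcam and fras1 were higher without overlap too (log2 fold change of fras1 1.06 ± 0.49, edgeR adjusted p = 0.809). Over the olig2 libraries 10 of 11 ventral midline, 5 of 6 hatching gland and 8 of 13 notochord markers were also higher without overlap. In these lists 0 were lower without overlap there. The part of any of these markers in the bcam and fras1 differences was not tested.

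Dystroglycan, a laminin receptor that is not an integrin, is encoded by dag1, which stood at 1631 and 1948 CPM in the nkx2.2a libraries, 1319 and 1072 CPM in the olig2 libraries, and 1022 and 1061 CPM in the dbx1b libraries. The nkx2.2a libraries lay above the other 4, with a log2 fold change of 0.58 ± 0.27 over olig2 and 0.78 ± 0.27 over dbx1b cells (edgeR adjusted p = 0.580 and 0.743). The perlecan gene hspg2, for a basement membrane proteoglycan, stood at 159 and 41.3 CPM, 295 and 120.1 CPM, and 229.5 and 212 CPM, and overlapped between the olig2 libraries and each of the other sorts. Both nkx2.2a libraries lay below both dbx1b libraries for hspg2 (log2 fold change -1.14 ± 0.64, edgeR adjusted p = 0.851).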

How the data were processed

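Read counts per transcript of 6 libraries were used as the authors deposited them, in tables that also give transcript length. Per the labels' protocols, cells were sorted for GFP and libraries made with standard Illumina protocols. FastQC 0.11.3, Bowtie 1.1.1 and the build GRCz10 are named in the submitters' processing notes, without a role. The sources used here do not give the treatment of reads that match more than 1 transcript, or of strand. Single values of near-identical copies (the beta-1 genes, fn1a and fn1b) are therefore uncertain. Every deposited count was even, as when both mates of a pair are counted. Mapped reads made up 19.4% to 33.4% of each library, and the row of unmapped reads was left out.

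Counts were summed per symbol. Genes with enough counts (filterByExpr, minimum count 10) were fitted over all 6 libraries with edgeR 4.0.16 (R 4.3.3, limma 3.58.1), TMM scaling and the quasi-likelihood test with Benjamini-Hochberg adjustment over 19129 genes. The common dispersion was 0.779, with 3 residual degrees of freedom. DESeq2 1.42.0 was an alternative, beside other scalings, filters, fragments in place of reads, the 4 libraries compared alone, a replicate block and leaving out each library. The code was tested on simulated data. Libraries of a group differed by more than counting noise (chi-square over its degrees of freedom 40.5 to 46.4), so none was a duplicate. Intervals (95%) come from the fit, and floors of 3 fragments cover counting error only.

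The members and lists were chosen with earlier results of these data known. Members named were 8 fixed genes, those with a mean of at least 10 CPM, the 3 with the largest change each way in each comparison and any past the adjusted p. From each of the 2 adhesion lists, the 4 genes of highest mean CPM were named. Fold changes are given only for named genes with over 3 fragments in at least 5 libraries, a rule chosen after seeing the values; itgb6, itga1, itga2.2, itga11b a few other low members and the list genes named for an alternative's call or as a marker were named after their values were seen. The deposited table of means was not used, because only 1151 of its 54437 rows held their own transcript's means.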

Additional observations from a re-analysis of the deposited data

How the results depend on the processing

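With the longest transcript as length, summed levels, ratios of ligands to receptors and fn1a shares moved by less than the SD between libraries. Leaving out 1 of 2 libraries always moves a mean by less than their SD. Those runs therefore could not show how far these values depend on single libraries. Counts of calls depended on the tool: for nkx2.2a against olig2, nkx2.2a against dbx1b and olig2 against dbx1b cells, DESeq2 called 523, 347 and 639 genes and edgeR without a filter 233, 238 and 292, against 0, 1 and 0. DESeq2 fitted 19129 genes and edgeR without a filter 27024. Of the members, DESeq2 called 3, 0 and 2, and edgeR without a filter 2, 0 and 1. In nkx2.2a over dbx1b cells 0 genes were called without composition scaling and 2 with only the 4 libraries compared; in olig2 over dbx1b cells 2 were called on fragments. Leaving out single libraries gave 0 to 6, 0 to 65 and 0 to 7 called genes, the 65 without olig2 library 2 and 43 without olig2 library 1, and 0 members. The cause was not tested.

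No pairing by library number was seen (correlations of deviations 0.02, -0.01 and 0.02). With 2 libraries a group and a wide spread between them, values near 0 cannot exclude a pairing. With the number as a replicate block, 0 members were called in each comparison and 3 genes in olig2 over dbx1b cells, and lamb2 turned to -0.55 in nkx2.2a over dbx1b cells.

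Of 1218 alternative log2 fold changes of named genes, 1172 kept their direction and side of the threshold, 12 passed it and 34 changed sign, 33 of them on leaving out a library. Their ranges in nkx2.2a over olig2 cells were -0.30 to 1.28 for fn1b, -0.69 to 1.097 for itgb1b, -2.40 to 0.43 for itga7, -0.65 to 0.85 for itgav, -1.47 to 2.56 for lamb2, -0.33 to 1.204 for lamb2l, -0.33 to 0.29 for rap1aa and -1.36 to 0.49 for bcar1. In nkx2.2a over dbx1b cells they were -0.54 to 0.22 for fn1a, -0.46 to 0.15 for itga5, -0.97 to 1.05 for itgb1a, -0.042 to 1.37 for lama1, -0.14 to 0.69 for lamb1a, -0.17 to 1.55 for itga11a, -0.61 to 0.93 for itgb1b.1, -3.06 to 0.69 for itgb4, -0.80 to 0.13 for itgb5, -2.78 to 1.22 for lamb2, -0.70 to 0.80 for lamb2l and -0.64 to 0.65 for bcar1. In olig2 over dbx1b cells they were -0.88 to 0.28 for itga3b, -0.15 to 0.70 for itga6a, -1.15 to 0.14 for itgb1b.1, -0.63 to 1.37 for bcar1 and -0.89 to 0.39 for hspg2. The cause was not tested. An alternative added after seeing the data counted members with a positive fold change: 24, 20 and 14, and 8 in olig2 over dbx1b cells on fragments, where fewer genes were tested. Without nkx2.2a library 1 the first count was 18 positive and 18 negative, against 24 and 13; without dbx1b library 2 the second was 28 and 9, against 20 and 17.

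With 2 libraries a group and 6509032 to 13866834 mapped reads, members under about 3 fragments could not be told from 0.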
